A study of Homo sapiens with 6 samples.

Results

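Cholesterol and fatty acid synthesis was followed in H358 cells through 32 genes chosen by name, of which 30 had a probe set annotated to them alone, among 18417 genes measured. The list runs from the mevalonate pathway to the last steps of cholesterol synthesis, the sterol-sensing regulators, and the enzymes that build, lengthen and desaturate fatty acids. For a gene with several such probe sets the one with the highest mean over all 6 arrays was kept. HSD17B7 shares its probe set with another gene symbol and FDFT1 was not analysed here.

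H358 cells are an established line from a human non-small cell lung cancer. One set of 3 arrays came from H358 cells that stably expressed TwistER, and the other set of 3 from H358 cells that stably expressed GFP, green fluorescent protein. TwistER denotes Twist, a transcription factor, fused to estrogen receptor sequence that keeps it inactive until 4-hydroxytamoxifen (4OHT) is added. Both lines received 100 nM 4OHT for 12 days, in a medium with fetal bovine serum that was refreshed with the drug at each passage. The titles describe the TwistER cultures as after, and the GFP cultures as before, epithelial-mesenchymal transition. TwistER cells without 4OHT were not analysed here, so what active TwistER does and what else sets these lines apart cannot be told apart. The labels do not say whether a line is 1 clone. All values are log2 expression, and all differences are TwistER minus GFP, with limma's standard error (SE) and 3 arrays per group unless GFP replicate 1 is left out. The words rose and fell are used of genes with a limma adjusted p under 0.05 over all 18417 genes.

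Among the GFP arrays, replicate 1 was the odd one. Its correlation over all genes with the others was r = 0.982, while GFP replicates 2 and 3 correlated at r = 0.996 and the TwistER arrays at r = 0.993 to 0.995. Differences of the members are therefore given with and without it. The E-cadherin gene CDH1 was 31.9-fold lower and EPCAM, an epithelial adhesion molecule, 9.73-fold lower in TwistER, and of 10 measured epithelial markers 6 fell and 0 rose. Among markers of cell types foreign to the culture, the median of the fibroblast list was 4.52 to 4.59 in the TwistER arrays and 4.25 to 4.47 in the GFP arrays, that of the adipocyte list 4.02 to 4.37 and 4.13 to 4.26, that of the leukocyte list 3.73 to 3.81 and 3.49 to 3.61, and that of the endothelial list 4.11 to 4.30 and 3.89 to 4.08, beside lower quartiles of all genes between 4.16 and 4.24. Of these lists the fibroblast one held 3 rises and 1 fall among 10 genes, and the adipocyte one 1 rise among 7. The endothelial one held 2 rises among 6 and the leukocyte one none among 6. The counts of all marker lists, the epithelial one included, stand beside 4.72% of all genes that rose and 4.11% that fell. The part of these cell types in the results below was not tested. In bulk RNA, fewer cells that express a gene and less of its RNA per cell cannot be told apart.

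Cells make cholesterol from acetyl-CoA through mevalonate, farnesyl diphosphate, squalene and lanosterol, and make fatty acids from the same precursor through malonyl-CoA. Both routes are driven by the SREBP transcription factors, encoded by SREBF1, which acts mainly on fatty acid genes, and SREBF2, which acts mainly on sterol genes. When sterols are plentiful the INSIG proteins hold the SREBP precursors in the endoplasmic reticulum, and when sterols run low the precursors move to the Golgi, are cleaved, and activate genes that include INSIG1 itself. Tumour cells often depend on these pathways for membrane growth.

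The list as a whole did not move one way. Among the 30 measured members 1 rose and 2 fell, which is 10% of them, beside 8.83% of all 18417 genes. Most members are bright. With genes under the 50 percentile of brightness left out, 28 members remained, and 1 rose and 2 fell. Of the 9209 genes then tested, 17.2% were called. SC5D, a late enzyme of cholesterol synthesis, was higher in TwistER. INSIG1, whose product holds back the SREBP precursors, and SCD, the stearoyl-CoA desaturase that makes monounsaturated fatty acids, were lower. Of all genes, 4.72% rose and 4.11% fell. The median difference of the members was -0.06, beside 0.0063 over all genes. The TwistER arrays lay wholly above or below the GFP arrays in 5 members, or 16.7%, whereas this held for 28.4% of all genes. With GFP replicate 1 left out, which makes such a separation easier, it held for 16 members, or 53.3%, beside 43.9% of all genes. Without GFP replicate 1, 1 member was higher and 8 were lower past the threshold, which is 30% of the members, beside 15.1% of all genes. The share among bright genes alone was not computed without GFP replicate 1. In that comparison 6.97% of all genes were higher, 8.09% of all genes were lower, and 26.7% of the members were lower. The median difference of the members was then -0.10, beside -0.0017 over all genes. The 8 lower members were EBP, DHCR7, SREBF1, INSIG1, ACACA, FASN, SCD and ELOVL1, and the higher one was SC5D.

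**Figure D1:**
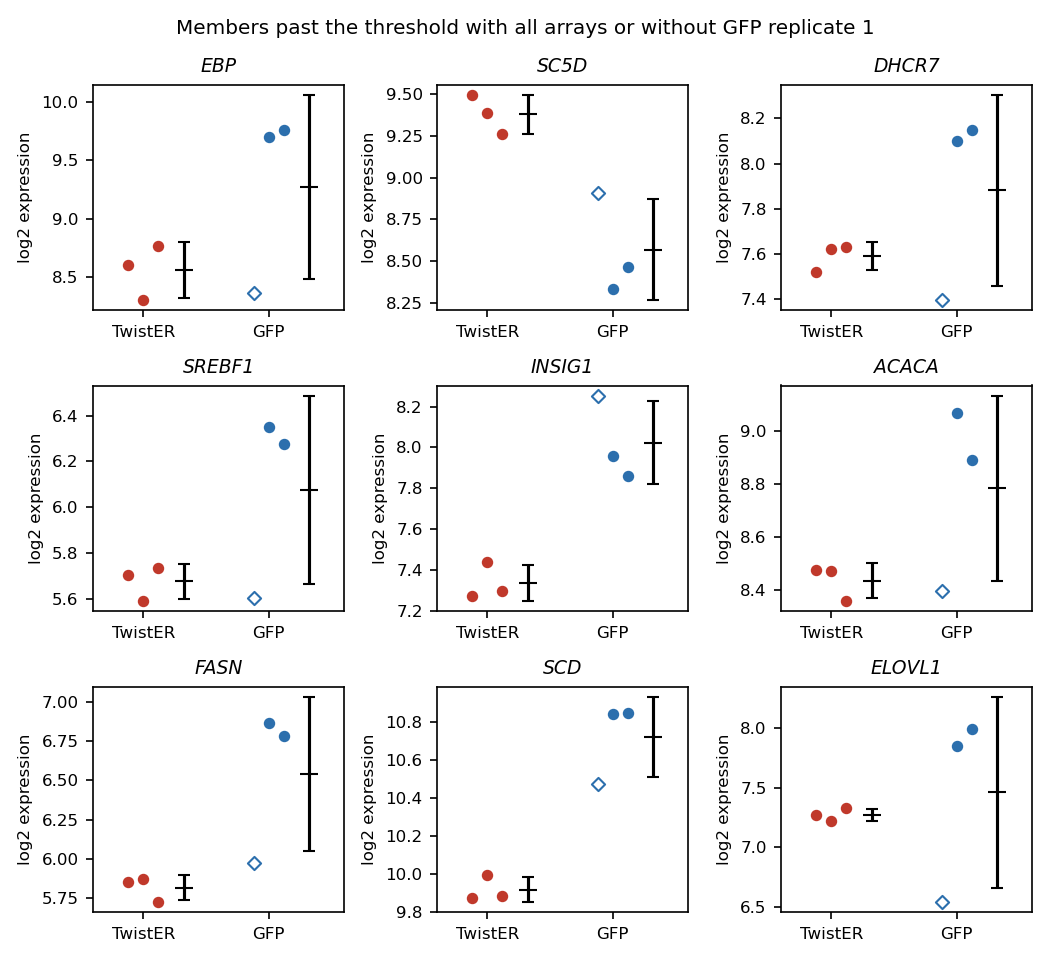
Log2 expression of the 9 members that passed the threshold with all arrays or without GFP replicate 1, with TwistER arrays in red and GFP arrays in blue. The open diamond is GFP replicate 1, and the black bars give the mean and SD of the 3 arrays. In SC5D, INSIG1, FASN and SCD the groups do not overlap, and in EBP, DHCR7, SREBF1, ACACA and ELOVL1 the diamond lies among or below the TwistER arrays while GFP replicates 2 and 3 lie above them.

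The promoters of the 3 members that changed, and that of SREBF2, are shown with the matches to 3 motifs, known from sterol regulation and from basic helix-loop-helix factors such as Twist, that each does or does not hold. Each is the 250 bases before the annotated start of the gene in RefSeq (GRCh38.p14), on the plus strand, at chr7:155297628-155297877 for INSIG1, chr10:100346983-100347232 for SCD, chr11:121292521-121292770 for SC5D and chr22:41832855-41833104 for SREBF2. For SC5D the first of 2 annotated starts was taken. Capitals mark matches on either strand to TCACCCCAC (a sterol regulatory element), CCAAT (the box bound by NF-Y, a partner of the SREBPs) or CANNTG (an E-box), and in these windows no matches overlapped.
INSIG1: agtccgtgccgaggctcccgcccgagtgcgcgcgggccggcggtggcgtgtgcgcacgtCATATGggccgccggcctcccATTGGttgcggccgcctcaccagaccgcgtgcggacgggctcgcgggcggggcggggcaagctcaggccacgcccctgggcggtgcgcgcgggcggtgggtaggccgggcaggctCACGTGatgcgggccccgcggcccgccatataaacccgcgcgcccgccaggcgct
SCD: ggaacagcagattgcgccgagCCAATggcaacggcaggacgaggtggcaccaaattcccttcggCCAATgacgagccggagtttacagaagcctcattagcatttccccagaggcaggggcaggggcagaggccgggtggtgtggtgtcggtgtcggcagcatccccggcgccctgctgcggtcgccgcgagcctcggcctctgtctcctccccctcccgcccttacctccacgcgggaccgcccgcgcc
SC5D: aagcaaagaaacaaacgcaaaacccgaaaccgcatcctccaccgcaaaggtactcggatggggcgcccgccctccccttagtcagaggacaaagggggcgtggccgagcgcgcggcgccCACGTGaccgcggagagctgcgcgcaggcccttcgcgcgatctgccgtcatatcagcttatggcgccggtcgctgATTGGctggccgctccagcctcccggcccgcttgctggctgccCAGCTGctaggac
SREBF2: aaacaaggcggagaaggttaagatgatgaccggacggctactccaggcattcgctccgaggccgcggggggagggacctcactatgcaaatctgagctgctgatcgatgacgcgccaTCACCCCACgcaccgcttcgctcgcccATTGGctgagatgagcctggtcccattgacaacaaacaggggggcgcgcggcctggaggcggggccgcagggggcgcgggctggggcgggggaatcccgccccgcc

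Counted back from the start of the gene, the INSIG1 window held an E-box beginning at position -191, a second at -55 and a CCAAT box at -170. That of SC5D held E-boxes at -131 and -13 and a CCAAT box at -56. The SCD window held CCAAT boxes at -229 and -186 and no E-box, and the SREBF2 window held the sterol regulatory element at -133 and a CCAAT box at -106. The table of RefSeq promoters used here held 37 such windows for 27 of the 30 members, and those of ACAT2, SQLE and FASN were not analysed here. TCACCCCAC was found in 1 of these 37 windows, that of SREBF2, or 2.70%, and in 0.362% of all 35116 windows. CCAAT was found in 67.6% of the member windows and 32% of all windows, and CANNTG in 45.9% and 61.8%. A match of letters does not show a bound site, and its absence shows only that the letters are not in the window.

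The mevalonate pathway, which turns acetyl-CoA into the isoprenoid units of sterols, showed no change past the test. Of its 7 measured genes 0 rose and 0 fell, with and without GFP replicate 1, and their differences lay between -0.13 and 0.13 with all arrays. HMGCS1, the synthase that makes HMG-CoA, read 9.68, 9.66 and 9.68 in TwistER against 9.95, 9.71 and 9.67 in GFP, a difference of -0.10 ± 0.11 (95% interval -0.36 to 0.16), or -0.02 ± 0.09 without GFP replicate 1. The TwistER arrays lay close together and at the level of GFP replicates 2 and 3, and GFP replicate 1 was the highest array. IDI1, the isomerase of isopentenyl diphosphate, read 9.01, 9.09 and 9.07 in TwistER against 9.35, 8.95 and 9.02 in GFP, with a difference of -0.05 ± 0.13, or 0.07 ± 0.09 without GFP replicate 1. GFP replicate 1 was again the highest array.

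FDPS, which makes farnesyl diphosphate for both sterols and protein prenylation, read 9.34, 9.21 and 9.32 in TwistER against 8.88, 9.62 and 9.59 in GFP. Its difference was -0.07 ± 0.19 (limma adjusted p = 0.885), and the value of -0.31 ± 0.09 obtained without GFP replicate 1 did not pass either (limma adjusted p = 0.0646). All 3 TwistER arrays lay between GFP replicate 1 and the other GFP arrays. The thiolase ACAT2 differed by 0.02 ± 0.10, or 0.02 ± 0.09 without GFP replicate 1, and its 6 arrays lay between 9.54 and 9.63. Mevalonate kinase (MVK), phosphomevalonate kinase (PMVK) and the decarboxylase MVD differed by 0.01 ± 0.21, -0.13 ± 0.13 and 0.13 ± 0.12, and without GFP replicate 1 by 0.26 ± 0.12, -0.13 ± 0.14 and 0.04 ± 0.09. MVK read 4.84, 4.48 and 4.66 in TwistER against 5.13, 4.35 and 4.45 in GFP, so that its TwistER arrays lay above GFP replicates 2 and 3 and below GFP replicate 1. The 95% intervals of the 7 genes reached at most -0.52 and 0.49, and without GFP replicate 1 at most -0.53 and 0.55.

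The steps from squalene to cholesterol held the strongest rise and, without GFP replicate 1, the strongest fall of the list. SC5D (probe set 7944656, chromosome 11), the lathosterol desaturase that forms 7-dehydrocholesterol, read 9.49, 9.39 and 9.26 in TwistER against 8.91, 8.33 and 8.46 in GFP. Every TwistER array was above every GFP array, and GFP replicate 1 was the nearest to them. SC5D rose 1.75-fold (0.81 ± 0.16, limma adjusted p = 0.0161), and the rise without GFP replicate 1 was 1.97-fold (0.98 ± 0.11, limma adjusted p = 0.00127). With all other arrays in place, the call was lost without GFP replicate 2, GFP replicate 3, TwistER replicate 1 or TwistER replicate 2, where the limma adjusted p reached 0.0771.

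EBP, the sterol isomerase that acts just before SC5D in the pathway, went the other way when GFP replicate 1 was left out. It read 8.61, 8.30 and 8.77 in TwistER against 8.36, 9.70 and 9.76 in GFP. GFP replicate 1 lay among the TwistER arrays, far below the other GFP arrays. With all arrays the difference of -0.72 ± 0.34 did not pass (limma adjusted p = 0.278), and without GFP replicate 1 EBP was 2.25-fold lower (-1.17 ± 0.14, limma adjusted p = 0.00207). DHCR7, the reductase that turns 7-dehydrocholesterol, the product of SC5D, into cholesterol, read 7.52, 7.62 and 7.63 in TwistER against 7.39, 8.10 and 8.15 in GFP. Its difference was -0.29 ± 0.20 with all arrays (limma adjusted p = 0.468) and -0.53 ± 0.09 without GFP replicate 1 (limma adjusted p = 0.00838). EBP and DHCR7 proteins are known to bind tamoxifen, which both lines received as its active metabolite. No culture without the drug was compared, so an effect of it, alike or unlike in the 2 lines, was not tested.

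The other 6 measured genes of these steps did not pass in either comparison. Squalene epoxidase (SQLE) read 10.45, 10.39 and 10.37 in TwistER against 10.57, 10.31 and 10.21 in GFP, a difference of 0.04 ± 0.12, or 0.14 ± 0.09 without GFP replicate 1. CYP51A1, the lanosterol demethylase, and MSMO1, which removes the methyl groups at carbon 4 of the sterol, differed by 0.05 ± 0.13 and -0.18 ± 0.20, and without GFP replicate 1 by 0.16 ± 0.10 and 0.05 ± 0.12. In SQLE, CYP51A1 and MSMO1 GFP replicate 1 was the highest of the 6 arrays. A dimmer probe set of CYP51A1 (8140864) read 7.59, 7.69 and 7.31 in TwistER against 7.18, 7.25 and 7.19 in GFP. There the groups did not overlap, but the difference of 0.33 ± 0.13 did not pass (limma adjusted p = 0.176 over all 19460 probe sets with 1 symbol). Lanosterol synthase (LSS), the sterol reductase TM7SF2 and the sterol dehydrogenase NSDHL differed by 0.13 ± 0.20, -0.15 ± 0.12 and -0.11 ± 0.13, and without GFP replicate 1 by -0.09 ± 0.13, -0.24 ± 0.10 and -0.23 ± 0.09.

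Among the regulators, INSIG1 fell and the SREBP genes did not pass with all arrays. INSIG1 (probe set 8137526, chromosome 7) read 7.28, 7.44 and 7.30 in TwistER against 8.25, 7.96 and 7.86 in GFP. All TwistER arrays were below all GFP arrays, and GFP replicate 1 was the highest, on the far side from TwistER. INSIG1 fell 1.61-fold (-0.69 ± 0.13, limma adjusted p = 0.0135), and 1.49-fold without GFP replicate 1 (-0.57 ± 0.10, limma adjusted p = 0.00859). Leaving out TwistER replicate 1 or 3 ended the call, at a limma adjusted p of up to 0.0679. INSIG2, its relative with the same role, differed by -0.14 ± 0.20 and did not pass.

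SREBF1 read 5.70, 5.59 and 5.74 in TwistER against 5.60, 6.35 and 6.27 in GFP. GFP replicate 1 lay within the TwistER range, and GFP replicates 2 and 3 lay above it. The difference of -0.40 ± 0.19 did not pass with all arrays (limma adjusted p = 0.284), and without GFP replicate 1 SREBF1 was 1.55-fold lower (-0.64 ± 0.09, limma adjusted p = 0.00472). SREBF2 read 6.44, 6.38 and 5.88 in TwistER against 5.84, 6.36 and 6.31 in GFP. One array of each group was low in it, TwistER replicate 3 and GFP replicate 1, and its differences of 0.07 ± 0.19 with and -0.10 ± 0.17 without GFP replicate 1 did not pass. STARD4, a carrier of cholesterol between membranes, read 8.01, 7.93 and 7.86 in TwistER against 8.91, 8.35 and 8.19 in GFP. The groups did not overlap, yet its difference of -0.55 ± 0.18 did not pass (limma adjusted p = 0.112), nor did that of -0.33 ± 0.10 without GFP replicate 1 (limma adjusted p = 0.0676).

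Of the 4 enzymes that feed and run fatty acid synthesis, 0 passed with all arrays and 2 without GFP replicate 1. FASN, the fatty acid synthase, read 5.85, 5.87 and 5.73 in TwistER against 5.98, 6.87 and 6.78 in GFP. GFP replicate 1 was only just above the TwistER arrays, and the other GFP arrays were well above both. With all arrays FASN did not pass (-0.72 ± 0.22, limma adjusted p = 0.0852), but with GFP replicate 1 left out it was 2.01-fold lower (-1.01 ± 0.10, limma adjusted p = 0.000682). ACACA, the acetyl-CoA carboxylase that makes malonyl-CoA, read 8.47, 8.47 and 8.36 in TwistER against 8.39, 9.07 and 8.89 in GFP. Its difference was -0.35 ± 0.17 with all arrays (limma adjusted p = 0.291) and -0.55 ± 0.10 without GFP replicate 1 (limma adjusted p = 0.0114).

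The genes that supply cytosolic acetyl-CoA passed in neither comparison, while FASN and ACACA passed only without GFP replicate 1. ATP citrate lyase (ACLY) read 9.08, 9.12 and 9.04 in TwistER against 7.67, 9.07 and 9.16 in GFP. GFP replicate 1 was far below the other 5 arrays, which lay close together. The difference of ACLY was 0.45 ± 0.35 with all arrays and -0.03 ± 0.09 without GFP replicate 1, with a 95% interval of -0.24 to 0.17. The acetyl-CoA synthetase ACSS2 differed by 0.22 ± 0.17 with, and 0.06 ± 0.13 without, that array.

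SCD (probe set 7929816, chromosome 10) had the lowest adjusted p of the list with all arrays. It read 9.87, 9.99 and 9.88 in TwistER against 10.48, 10.84 and 10.85 in GFP. The groups were apart by more than the spread within either, with GFP replicate 1 the GFP array nearest to TwistER. SCD fell 1.75-fold (-0.81 ± 0.13, limma adjusted p = 0.00632), and 1.9-fold without GFP replicate 1 (-0.93 ± 0.09, limma adjusted p = 0.000771). It passed with each of the 6 arrays left out in turn, at a limma adjusted p of at most 0.0373. SCD5, the other stearoyl-CoA desaturase of human cells, read 5.61, 5.50 and 5.70 in TwistER against 5.13, 5.28 and 5.29 in GFP. It lay higher in all TwistER arrays, but the difference of 0.37 ± 0.11 did not pass (limma adjusted p = 0.0815).

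The desaturases of polyunsaturated fatty acids and most elongases did not pass. FADS1 and FADS2, neighbouring genes on chromosome 11 that introduce double bonds near the carboxyl end, differed by 0.15 ± 0.23 and 0.38 ± 0.22 with all arrays and by -0.15 ± 0.09 and 0.10 ± 0.09 without GFP replicate 1. FADS2 read 7.13, 7.25 and 7.28 in TwistER against 6.27, 7.13 and 7.11 in GFP, so that a single GFP array was low. ELOVL1, which lengthens very long saturated chains, read 7.27, 7.22 and 7.33 in TwistER against 6.54, 7.86 and 7.99 in GFP. The TwistER arrays lay between GFP replicate 1 and the others. Its difference of -0.19 ± 0.33 did not pass (limma adjusted p = 0.817), but in the comparison that left out GFP replicate 1 ELOVL1 was 1.57-fold lower (-0.65 ± 0.09, limma adjusted p = 0.00429).

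ELOVL5, an elongase of polyunsaturated chains, and ELOVL6, which lengthens palmitate to stearate, differed by 0.27 ± 0.18 and 0.22 ± 0.15 with all arrays. Without GFP replicate 1 their differences were 0.04 ± 0.09 and 0.07 ± 0.11. Their 95% intervals were then -0.16 to 0.25 and -0.18 to 0.31.

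**Figure D2:**
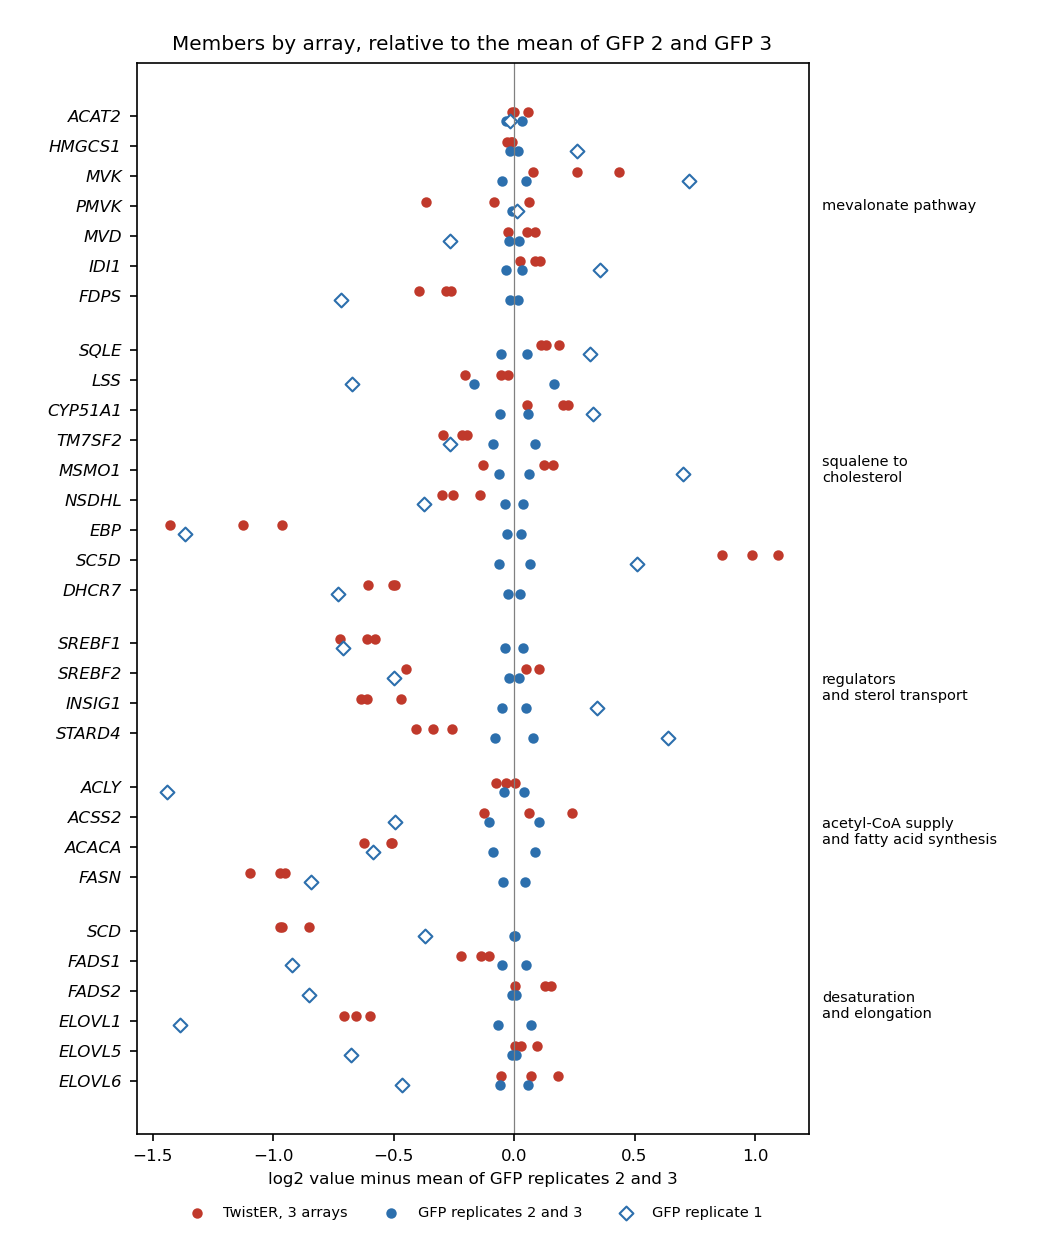
Each measured member by array, as the log2 value minus the mean of GFP replicates 2 and 3, with TwistER arrays in red, GFP replicates 2 and 3 in blue and GFP replicate 1 as an open diamond, grouped by role. In all 10 fatty acid genes the diamond lies left of both other GFP arrays, and in 10 of the 20 sterol genes it lies right of both.

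GFP replicate 1 differed from its own group more in these members than in genes at large, which include more dim genes. Genes of like brightness were not compared. The shift was to 1 side in the fatty acid genes and, as in genes at large, to both sides in the sterol genes. The median absolute distance between it and the mean of GFP replicates 2 and 3 was 0.55 over the members and 0.23 over all genes. It was below both other GFP arrays in 10 of 10 fatty acid members, with shifts from -0.37 (SCD) to -1.44 (ACLY), while this held for 41.8% of all genes. Among 24 other genes that make or activate fatty acids, listed below, it was below both in 12 and above both in 8. Of the 20 measured sterol genes it was above both in 10 and below both in 9, beside 39.9% and 41.8% of all genes. Those above both were HMGCS1, MVK, PMVK and IDI1 of the mevalonate pathway, SQLE, CYP51A1, MSMO1 and SC5D of the later steps, and INSIG1 and STARD4. Those below both included FDPS, LSS, EBP, DHCR7, SREBF1 and SREBF2. These are descriptions of 1 array, and the labels give nothing that sets it apart.

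**Figure D3:**
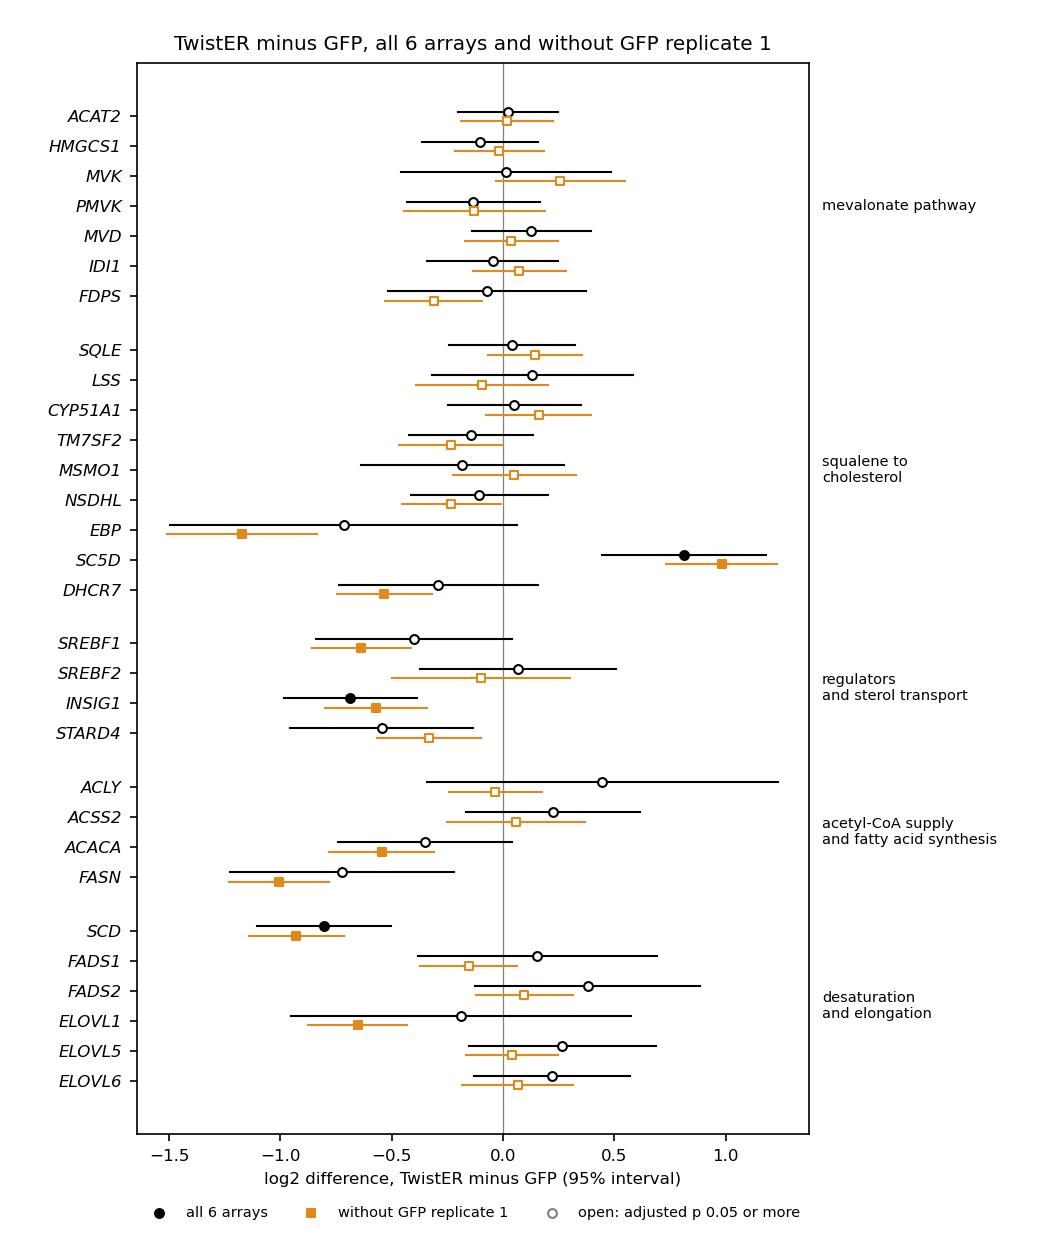
TwistER minus GFP difference of each measured member with its 95% interval, from all 6 arrays (black circles) and without GFP replicate 1 (orange squares), where filled symbols passed a limma adjusted p of 0.05. Filled black circles mark SC5D, INSIG1 and SCD, and 9 orange squares are filled, with SC5D the one to the right of 0.

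The signs of 6 members that did not pass with all arrays turned without GFP replicate 1: IDI1 and MSMO1 became positive, at 0.07 and 0.05, and LSS, SREBF2, ACLY and FADS1 became negative, at -0.09, -0.10, -0.03 and -0.15. None of the 6 passed in either comparison. All 3 calls made with all arrays were made again without GFP replicate 1.

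The 6 lists of neighbouring lipid genes were written from general knowledge, with earlier results of these data known. With all arrays they included falls and rises beyond the range of the members. The counts of these lists stand beside 4.72% of all genes that rose and 4.11% that fell, or 6.97% and 8.09% without GFP replicate 1. Of 24 measured genes that otherwise make or activate fatty acids 4 fell and 0 rose (16.7%, median 0.0071). Without GFP replicate 1 there were 6 falls and 1 rise (29.2%). ME1, the malic enzyme that supplies NADPH for fatty acid synthesis, read 7.69, 7.71 and 7.58 in TwistER against 9.62, 9.16 and 9.18 in GFP, and fell 3.17-fold (-1.67 ± 0.14, limma adjusted p = 0.000239). ACSL1, which activates long-chain fatty acids to acyl-CoA, read 6.38, 6.35 and 6.25 in TwistER against 7.53, 8.24 and 7.91 in GFP, and fell 2.96-fold (-1.56 ± 0.17, limma adjusted p = 0.000861). ELOVL7, an elongase, fell 2.91-fold (-1.54 ± 0.18) and HACD2, a dehydratase of the elongation cycle, 1.97-fold (-0.98 ± 0.12). In each of these 4 genes every TwistER array was below every GFP array.

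Genes of sterol uptake and traffic moved both ways. Of 21 measured, 3 rose and 1 fell (19%, median -0.02). Without GFP replicate 1 there were 3 rises and 3 falls (28.6%). VLDLR, a lipoprotein receptor, read 10.38, 10.33 and 10.36 in TwistER against 9.36, 9.69 and 9.71 in GFP, and rose 1.70-fold (0.77 ± 0.13, limma adjusted p = 0.00639). GRAMD1C, of a family that carries cholesterol from the plasma membrane, read 6.34, 5.90 and 6.11 in TwistER against 5.25, 5.15 and 4.94 in GFP, and rose (limma adjusted p = 0.00343). CYP7B1, an oxysterol hydroxylase, rose 1.64-fold (0.71 ± 0.14). ABCA1, which exports cholesterol to apolipoproteins, read 6.13, 6.04 and 5.92 in TwistER against 6.46, 7.27 and 7.14 in GFP, and fell 1.9-fold (-0.93 ± 0.20, limma adjusted p = 0.0247). Without GFP replicate 1 the fall of ABCA1 was 2.25-fold (limma adjusted p = 0.000481).

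In the machinery that processes the SREBPs and senses sterols, 2 of 11 measured genes fell and 0 rose (18.2%, median 0.02). The counts without GFP replicate 1 were the same. RNF139, an endoplasmic reticulum ubiquitin ligase, fell 1.52-fold (-0.61 ± 0.14) and MYLIP, the ligase that degrades lipoprotein receptors, 1.40-fold (-0.48 ± 0.11). SCAP, the escort of the SREBPs, differed by 0.02 ± 0.15. The protease genes MBTPS1 and MBTPS2, whose products cleave the SREBPs, differed by 0.58 ± 0.30 and -0.02 ± 0.11, and neither passed. Of 14 genes of the branch to prenyl groups, dolichol and ubiquinone, 2 fell and 0 rose (14.3%, median -0.16), and 6 fell without GFP replicate 1 (42.9%). The pair that fell with all arrays was ZMPSTE24, a protease of prenylated proteins (-0.71 ± 0.13), and PDSS1, which builds the ubiquinone side chain (-0.52 ± 0.10).

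As in sterol uptake and traffic, rises with all arrays lay among genes of triglyceride synthesis and lipid droplets. They also lay among regulators listed with fatty acid oxidation. Of 21 measured genes of triglyceride synthesis and lipid droplets 3 rose and 1 fell (19%, median 0.05), with the same counts without GFP replicate 1. GPAM, the mitochondrial acyltransferase that begins glycerolipid synthesis, read 7.48, 7.55 and 7.37 in TwistER against 6.39, 6.63 and 6.21 in GFP, and rose 2.08-fold (1.05 ± 0.13, limma adjusted p = 0.00163). The monoglyceride lipase MGLL rose 2.32-fold (1.22 ± 0.29), or 1.77-fold without GFP replicate 1, and the phosphatidate phosphatase LPIN2 rose by 0.58 ± 0.10. ABHD5, the co-activator of triglyceride lipase, fell 1.73-fold (-0.79 ± 0.11).

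Of 24 measured genes of fatty acid oxidation and its regulation 2 rose and 1 fell (12.5%, median 0.01), and 4 rose and 4 fell without GFP replicate 1 (33.3%). The nuclear receptor PPARG, a regulator of lipid storage, rose 2.06-fold (1.04 ± 0.13, limma adjusted p = 0.00136) and the co-activator PPARGC1A 1.58-fold (0.66 ± 0.11). ETFA, an electron carrier of beta-oxidation, fell 1.59-fold (-0.67 ± 0.17).

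**Figure D4:**
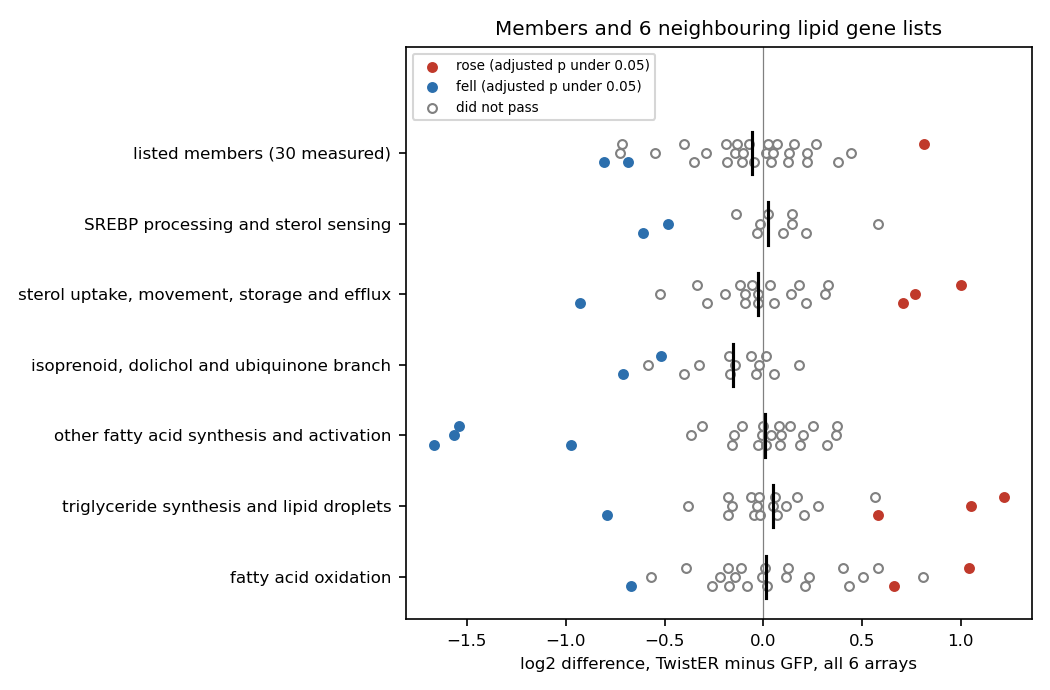
TwistER minus GFP difference of each gene in the list of members and in 6 neighbouring lipid lists, from all 6 arrays, with red points for genes that rose, blue points for genes that fell, open points for genes that did not pass, and a black line at each list's median. The members run from -0.81 to 0.81. Falls below that range lie in the lists of other fatty acid synthesis and of sterol uptake and traffic, and rises above it, such as MGLL, GPAM, PPARG and GRAMD1C, in those of sterol uptake and traffic, triglycerides and oxidation.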

How the data were processed

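RNA from 6 cultures of H358 cells was biotin-labelled for Affymetrix human gene arrays. The authors deposited log2 expression for each probe set, computed with RMA according to the submitters' processing notes; the version and settings of RMA are not stated in the sources used. Because RMA equalises the arrays' distributions, a shift of the whole transcriptome would not show.

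Of 33297 probe sets, the platform annotation gives 1 gene symbol to 19460, several to 1754 and none to 12083. Each gene took its brightest probe set over the 6 arrays, leaving 18417 genes. Groups came from the treatment labels and replicate numbers from the titles, which say only that samples are biological replicates. The p-values therefore reflect variation among these cultures, which may be technical. The number of arrays limits the precision.

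All genes were tested together in limma 3.58.1 (R 4.3.3) by lmFit and eBayes, 2-sided and without covariates, with Benjamini-Hochberg adjustment over all genes. The procedure was checked on simulated data. Sequences were read from RefSeq with Python 3.11.15. The members and lists were chosen with earlier results of these data known. All members are named, and of the neighbouring lists the genes past the threshold (at most 4 per direction). INSIG2, SCD5, SCAP, MBTPS1 and MBTPS2 were named after their values were seen. The closing section gives the effect of the 18 alternatives tried.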

Additional observations from a re-analysis of the deposited data

How the results depend on the processing

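The counts of 1 member that rose and 2 that fell, and the median difference of -0.06, were the same with a second quantile normalization, arrays centred on their median, cyclic loess, filters on dim genes at the 25 and 50 percentiles, averaging of probe sets per gene, a trended robust variance and the replicate block, except that the median was -0.04, -0.09 and -0.0092 under the 3 normalizations. The filters at the 25 and 50 percentiles called 12.6% and 17.2% of the genes tested, and the other settings of this group 8.54% to 9.28%. With the replicate number as a block 1 rose, 2 fell and the median was -0.06. The labels name no pairing, so the numbers were not taken to pair the samples. Deviations of same-numbered arrays correlated at 0.14, 0.015 and 0.16. Differently numbered arrays were not compared, so these values do not decide whether samples were paired. With array weights, which gave GFP replicate 1 a weight of 0.19, 1 rose and 8 fell, and 17.7% of all genes were called. At an adjusted p under 0.01 in limma, 0 rose and 1 fell, and with limma's treat against a fold of 1.2 likewise 0 and 1, SCD in both. Of all genes, 4.38% were called at 0.01 and 3.95% with treat. At an adjusted p under 0.10, 1 rose and 3 fell, with FASN added, and 13% of all genes were called. Leaving out each array in turn, 0 to 1 rose and 1 to 8 fell, with a median from -0.10 to -0.0096, and 4.51% to 15.1% of all genes were called. No member past the threshold in any of these settings had the opposite sign from that with all arrays. The 3 arrays per group limit the precision, and the printed intervals give its size for each gene.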
